A study of Caenorhabditis elegans with 4 samples.

Results

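Autosomal runs of closely spaced IMB-1 peaks are stretches in which many short peaks were called side by side in ChIP replicate 1. They were chosen from the replicate 1 peak list by sorting peaks along each of the 5 autosomes, chaining neighbours whose edges lay at most 5 kb apart, and keeping chains of 10 or more peaks. This gave 14 runs with 370 peaks, which were 25.3% of the 1464 autosomal peaks and 21.1% of all 1753 peaks of replicate 1. The positions and widths of these peaks chose the members, so the number, spacing and cover of replicate 1 peaks in the runs are a description and carry no test. Replicate 2 (1620 peaks, 1265 of them autosomal) was not used in the choice.

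IMB-1 is the importin beta of Caenorhabditis elegans, a transport receptor that carries proteins with a nuclear localisation signal through the nuclear pore, most often together with an importin alpha adaptor. It binds pore proteins on the way in and releases its cargo when RanGTP, the GTP-bound form of the GTPase Ran, meets it in the nucleus. In dividing cells, importin beta also restrains factors for spindle assembly and for rebuilding the nuclear envelope until RanGTP frees them. Chromatin immunoprecipitation of such a protein recovers DNA that was crosslinked to it directly or through partners, such as pore components near chromatin.

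Both ChIP samples were mixed embryos of the wild-type strain N2, the standard laboratory strain, from a population of males and hermaphrodites. Embryos were obtained by bleaching gravid adults from liquid culture and were fixed alive in 2% formaldehyde for 30 min, and a rabbit polyclonal antibody, SDQ4154, was raised against a part of IMB-1. Each sample is thus a pool of many embryos and stages, and the labels do not say whether replicates 1 and 2 came from separate cultures. The 2 ChIP samples have peak lists, a further list of 2008 peaks (1650 autosomal) belongs to the series as a whole, and the 2 input samples have no file among those analysed here. The sequencing depth behind the lists is unknown, input signal in the runs was not analysed here, and absence of a peak means only that none was called.

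The runs were spread over all 5 autosomes and were most numerous on chromosomes II and III. Together they spanned 239.0 kb, or 0.289% of the autosomal length of 82.6 Mb. Chromosome III had 5 runs with 145 peaks, which were 46.5% of its replicate 1 peaks. Chromosome II had 4 runs with 81 peaks (31.3%), chromosome IV 2 runs with 76 (20.4%), chromosome V 2 runs with 51 (16.5%) and chromosome I 1 run with 17 (8.06%). Runs are named by their chromosome and a letter in order along it, with coordinates of build WS220 counted from 1. Places along a chromosome are given in percent from its left end, with its last peak end among the 3 lists as the length.

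The longest runs were IIIb and IVb, both well away from the chromosome ends. Run IIIb extended over 47.4 kb, from 7405335 to 7452720 on III, at 53.9% of the length, and held 60 peaks. Run IVb extended over 46.7 kb, from 6684472 to 6731167 on IV, at 38.3% of the length, and held the most peaks, 65. These 2 runs made up 39.4% of the summed span and 33.8% of the run peaks. Run Va was next in length, at 23.7 kb from 6070794 to 6094516 on V, with 37 peaks. The shortest was run IVa, at 6.72 kb from 6668745 to 6675464 on IV, with 11 peaks, the fewest of any run. Only 9007 bp separated it from IVb, so both lie in the same part of the chromosome.

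The other runs were between 7.17 and 16.5 kb long. On chromosome II, run IIa (1450600 to 1458478, 15 peaks) and run IIb (3159609 to 3168436, 21 peaks) lay in the left part, run IIc (9808091 to 9824544, 25 peaks) lay at 64.2% of the length, and run IId (14323907 to 14339260, 20 peaks) lay at 93.8%. On chromosome III, run IIIa (322049 to 332816, 23 peaks) was close to the left end at 2.38%. Runs IIIc (11429065 to 11436231, 13 peaks), IIId (13074957 to 13086447, 15 peaks) and IIIe (13584290 to 13599269, 34 peaks) were in the right part, with IIIe at 98.6%, the closest of all runs to a chromosome end. Run Ia (4283162 to 4294272, 17 peaks) was at 28.5% of chromosome I, and run Vb (17384120 to 17394533, 14 peaks) at 83.1% of chromosome V. Of the 14 runs, 7 had their middle in the outer 20% at either end of a chromosome and 7 lay between. The latter include run IIb, at 20.7%, just inside this cut. Runs thus occurred both towards the ends and further in. In this species the ends are rich in repeats and the middle is gene-dense, but repeats and genes were not examined here.

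**Figure D1:**
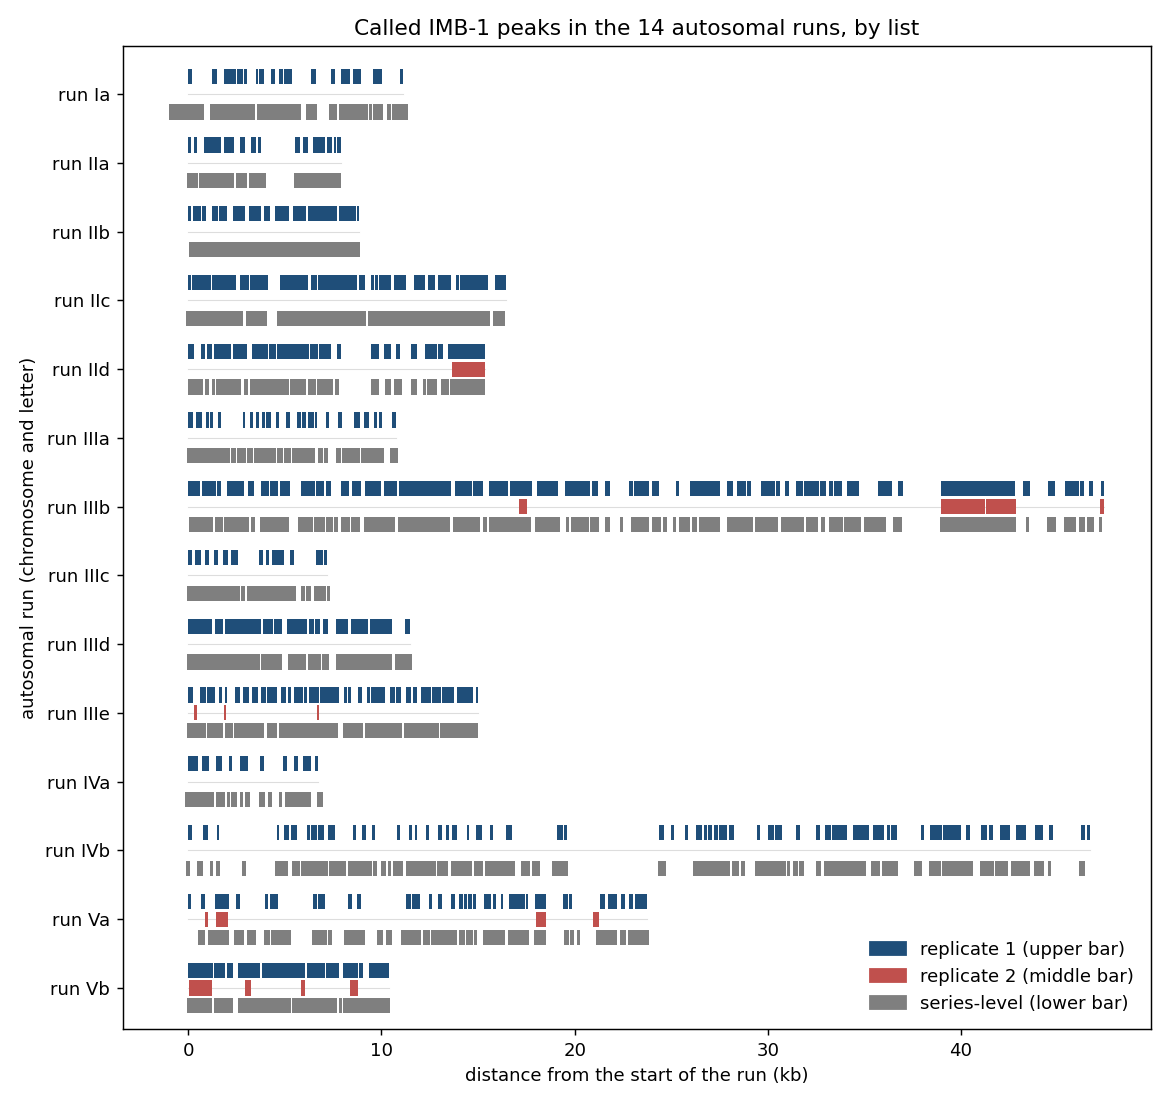
Peaks of each list in the 14 runs, drawn to scale as bars against the distance from the run's first replicate 1 base (kb), with replicate 1 above, replicate 2 in the middle and the series-level list below. Replicate 1 peaks cover from 34.4% of run IVb to 88.1% of run Vb, replicate 2 has 16 peaks in 5 of the runs, and the series-level list has peaks in all 14.

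Within the runs, peaks followed each other at short distances. The 356 gaps between neighbouring run peaks had a median of 165.5 bp (quartiles 56.0 and 346.8 bp), and 86.5% of them were shorter than 500 bp. Only 21 gaps exceeded 1000 bp and 4 exceeded 2000 bp, although the rule admitted gaps of up to 5 kb. The distance between the middles of neighbouring peaks had a median per run of 364.25 bp (run IIb) to 810.5 bp (run IIId). Elsewhere on the autosomes, neighbouring peaks were a median of 31109 bp apart. The 402 pairs there that were also within 5 kb had a median gap of 210.5 bp, and 65.4% of those gaps were under 500 bp, so short gaps were common in smaller groups as well.

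The runs differed in how densely they were filled. Replicate 1 peaks covered 56.7% of the summed span, and 7 runs were covered to more than 60% and 7 to less. Run Vb was the most completely covered, at 88.1%, with a median gap of 65 bp and a widest gap of 284 bp. Runs IIc (80.3%), IIId (79.4%) and IIb (77.6%) were next, and in IIb the median gap was 45 bp. In these 4 runs short interruptions separated peaks that otherwise filled the span, and over all runs 37.4% of gaps were shorter than 100 bp.

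At the other end of the scale, run IVb was covered to 34.4% and run Va to 37.4%. Run IVb had 7 of the 21 gaps over 1000 bp and the widest gap of any run, 4749 bp from 6704078 to 6708826, which divides it into a left and a right block. Va had 5 such gaps, the widest of 2349 bp from 6079711 to 6082059. Runs Ia (42.3%), IIIa (42.6%), IVa (42.8%) and IIIc (45.4%) were also loosely filled, and run IIa (50.7%) had 1 gap over 1000 bp, of 1778 bp. Runs IIIe (68.8%), IId (68.4%) and IIIb (67.3%) lay between the extremes. In IIIb the widest gap, 1949 bp, lay directly before its highest-scoring peak, and in IId a gap of 1601 bp lay in the middle of the run.

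**Figure D2:**
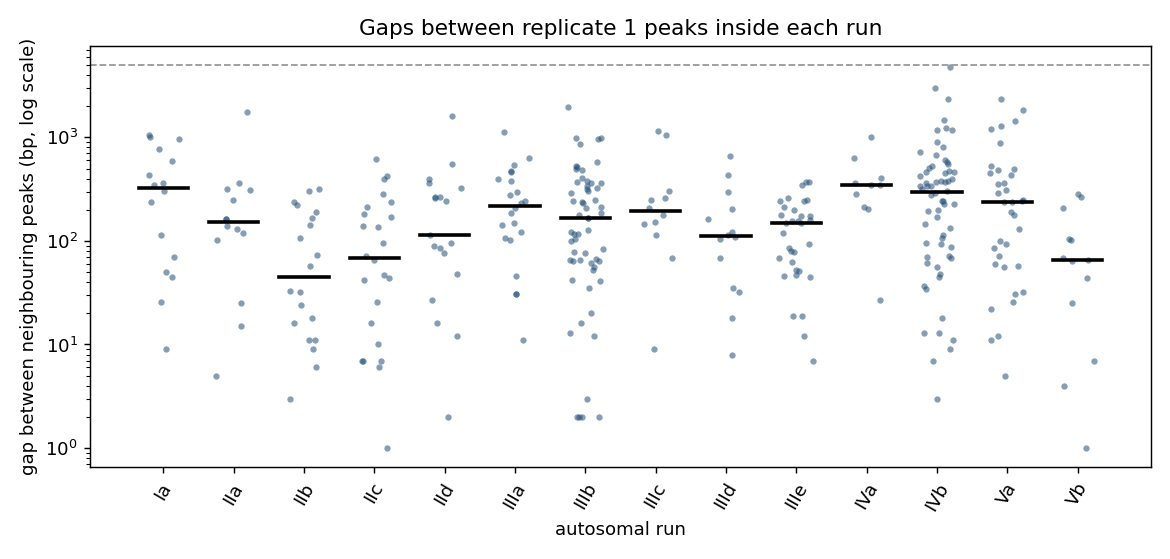
Gaps between neighbouring replicate 1 peaks inside each run (bp, log scale), 1 point per gap, with the median of each run as a black bar and the 5 kb limit of the rule as a dashed line. Medians lie between 45 bp in run IIb and 347.5 bp in run IVa, and the largest gap, 4749 bp in run IVb, is just under the limit.

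Replicate 1 peaks were sparse around most runs, but they were sparse over the autosomes outside the runs as well, at 13.3 per Mb. The distances below were not compared with those around other peaks, so they do not mark the runs as isolated. From a run's edge to the nearest replicate 1 peak outside it, the median distance was 89.0 kb (range 6245 bp to 521.1 kb). At 19 of 28 edges no replicate 1 peak was called within 50 kb. Runs Ia, IIa, IId, IIIc and Va had none within 50 kb on either side. The left edge of IIIb was 394624 bp from the next peak, and the right edge of IVb 521097 bp. The nearest neighbour of all lay 6245 bp before run IIId, not far beyond the limit of the rule, and run IIb was followed at 9033 bp by another peak. Replicate 2 did have peaks around some runs in which it had none: it called peaks 35599 bp before and 25303 bp after run IVb, and 2651 bp before run IIIc.

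The first and last peaks of the runs had scores much like the rest. The peak caller's score, whose scale is not named, had a median of 107.6 in the 28 edge peaks and of 113.4 in all run peaks, and 11 of 28 edge peaks were above their own run's median. Runs IId, IIId, IVa and Vb had their highest-scoring peak at an edge. In IId this was the last peak, 14337587 to 14339260, with a score of 3100. IIId, IVa and Vb began with theirs, at 638.87, 193.28 and 2306.23. By contrast, run IIb opened at 50.37 and closed at 53.04, close to the lowest score of the list, 50.03, and its highest, 427.45, stood near the middle at 3164071 to 3164826.

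Most run peaks had middling scores. By score within the replicate 1 list, 18.6% of run peaks were in the lowest 25% of the list, 24.1% in the second, 39.5% in the third and 17.8% in the highest. The other autosomal peaks were spread more evenly, at 27.0%, 26.2%, 21.2% and 25.6%. The median score was 113.4 in the runs (quartiles 68.8 and 172.0) and 93.2 in the other 1094 autosomal peaks (62.4 and 216.4). Median width was 261 bp in the runs and 219 bp elsewhere, and at similar scores the widths were close (152 and 139 bp in the lowest 25%, 671 and 693 bp in the highest). These values belong to the calls that chose the runs and were not tested.

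Very high scores occurred in few runs. Run peaks were 21.1% of the 1753 peaks of replicate 1, and 5 of the 370 were among its 100 highest-scoring peaks. Run IIIb had 2 of them, adjoining each other at 7444299 to 7446615 (2317 bp) and 7446629 to 7448155 (1527 bp), both with a score of 3100, a value at which 56 peaks of the list were tied. Run IId had 1, at the same score. Run Va had 1, at 6072181 to 6072885 (705 bp, score 2466.58), and run Vb 1, at 17384120 to 17385392 (1273 bp, score 2306.23). The widest run peak, 2699 bp from 7416220 to 7418918 in IIIb, scored 830.52 and ranked 174.

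The runs without such peaks had more even scores. Run IVb ranged from 50.15 to 266.0, with a median of 81.93, and 39 of its 65 peaks were in the lower 50% of the list. Runs IIIa (highest score 206.95) and IVa (193.28) had no peak in the highest 25%. Run IIc, in contrast, had 12 of its 25 peaks in the highest 25%, with a median score of 203.93 and a maximum of 741.04 at 9822162 to 9823589. In run Vb 9 of 14 peaks were in the highest 25% and the median score was 470.03, the highest of all runs.

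Replicate 2 had few peaks in the runs. It called 16 peaks there, against 370 in replicate 1, in 5 of the runs, and none in the other 9. Of the 370 run peaks of replicate 1, 16 touched a replicate 2 peak by at least 1 bp (4.32%, exact Clopper-Pearson 95% interval 2.49 to 6.93%). Among all autosomal replicate 1 peaks the share was 32.7%, and among the 1094 outside the runs it was 42.3% (39.4 to 45.3%). Intervals cover counting error only. No test was made, because neighbouring peaks in a run are not independent and replicate 2 is 1 sample.

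The share was lower in the runs at every level of score. Of run peaks in the lowest 25% of replicate 1 scores, 2.90% (2 of 69) touched replicate 2, against 15.6% (46 of 295) of other autosomal peaks. In the second 25% the shares were 2.25% (2 of 89) and 25.8% (74 of 287). In the third, 0 of 146 run peaks touched replicate 2 (interval 0 to 2.49%), against 49.1% (114 of 232) elsewhere. In the highest 25% the shares were 18.2% (12 of 66, interval 9.76 to 29.6%) and 81.8% (229 of 280, 76.8 to 86.1%). Run peaks stood lower within that group, with a median rank of 302.5 against 195.5. Splitting it at rank 219 gave 44.4% (8 of 18) against 86.5% (135 of 156) above and 8.33% (4 of 48) against 75.8% (94 of 124) below.

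In their overlap with replicate 2, smaller groups of peaks lay between the runs and single peaks. Of autosomal replicate 1 peaks in chains of 10 or more, which are the runs, 4.32% touched replicate 2. The share was 23.2% (36 of 155) in chains of 5 to 9 peaks, 42.2% (196 of 465) in chains of 2 to 4 and 48.7% (231 of 474) in peaks with no neighbour within 5 kb. Touching the series-level list followed another order, at 98.6%, 89.0%, 91.6% and 78.7%.

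**Figure D3:**
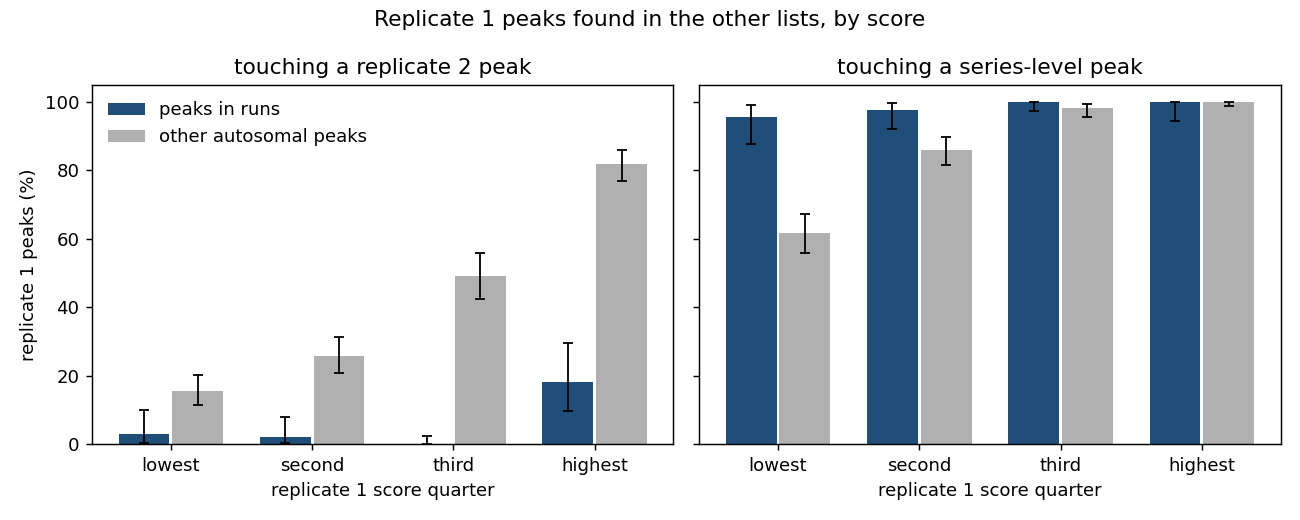
Share of replicate 1 peaks (%) that touch a replicate 2 peak (left panel) or a series-level peak (right panel), for peaks in the runs and other autosomal peaks, by 25% groups of the replicate 1 score. Error bars are exact 95% intervals for counting error. In the highest group 18.2% of run peaks and 81.8% of other autosomal peaks touch replicate 2, and 100% of both touch the series-level list.

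The replicate 2 peaks that did occur in the runs included several at the strongest replicate 1 peaks. In run IIIb, replicate 2 had a peak of 2289 bp at 7444315 to 7446603 with a score of 3100 and one of 1534 bp at 7446629 to 7448162 with a score of 2819.04. Their limits differ by at most 16 bp from those of the 2 replicate 1 peaks of highest score in that run. The other 2 replicate 2 peaks of IIIb had scores of 56.41 and 69.5, and the second of them, at 7452556 to 7452729, coincided with the last peak of the run. Thus 4 of the 60 replicate 1 peaks of this run touched replicate 2.

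Run Va showed the same arrangement at a pair of separate places. Replicate 2 peaks of score 3100 at 6072203 to 6072869 and 2205.64 at 6088807 to 6089288 lay inside the replicate 1 peaks of score 2466.58 and 1580.0, which were the 2 highest of the run. Another replicate 2 peak, with a score of 58.52, touched a run peak by 5 bp, and the last, of 96.42 at 6091734 to 6092030, lay in a gap. In run IId, the single replicate 2 peak, 14337543 to 14339241 with a score of 3100, overlapped all but the right end of the highest-scoring replicate 1 peak, which ends at 14339260, and also touched the peak before it.

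Runs Vb and IIIe were different. In Vb, replicate 2 had 4 peaks that touched 5 of 14 replicate 1 peaks, mostly with low scores. The first, at 17384161 to 17385344, scored 345.27 and ranked 435 of 1620, where the replicate 1 peak ranked 76 of 1753, and the others scored 58.5 to 73.64. Vb also held the highest-scoring run peak without a replicate 2 partner, its last, at 17393452 to 17394533 with a score of 1169.75. In IIIe the 3 replicate 2 peaks scored 54.16 to 60.97, near the lowest score of that list, 50.12, and 1 of them lay in a gap between run peaks. Scores of the replicate lists were not compared as amounts, since their scale is not named.

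**Figure D4:**
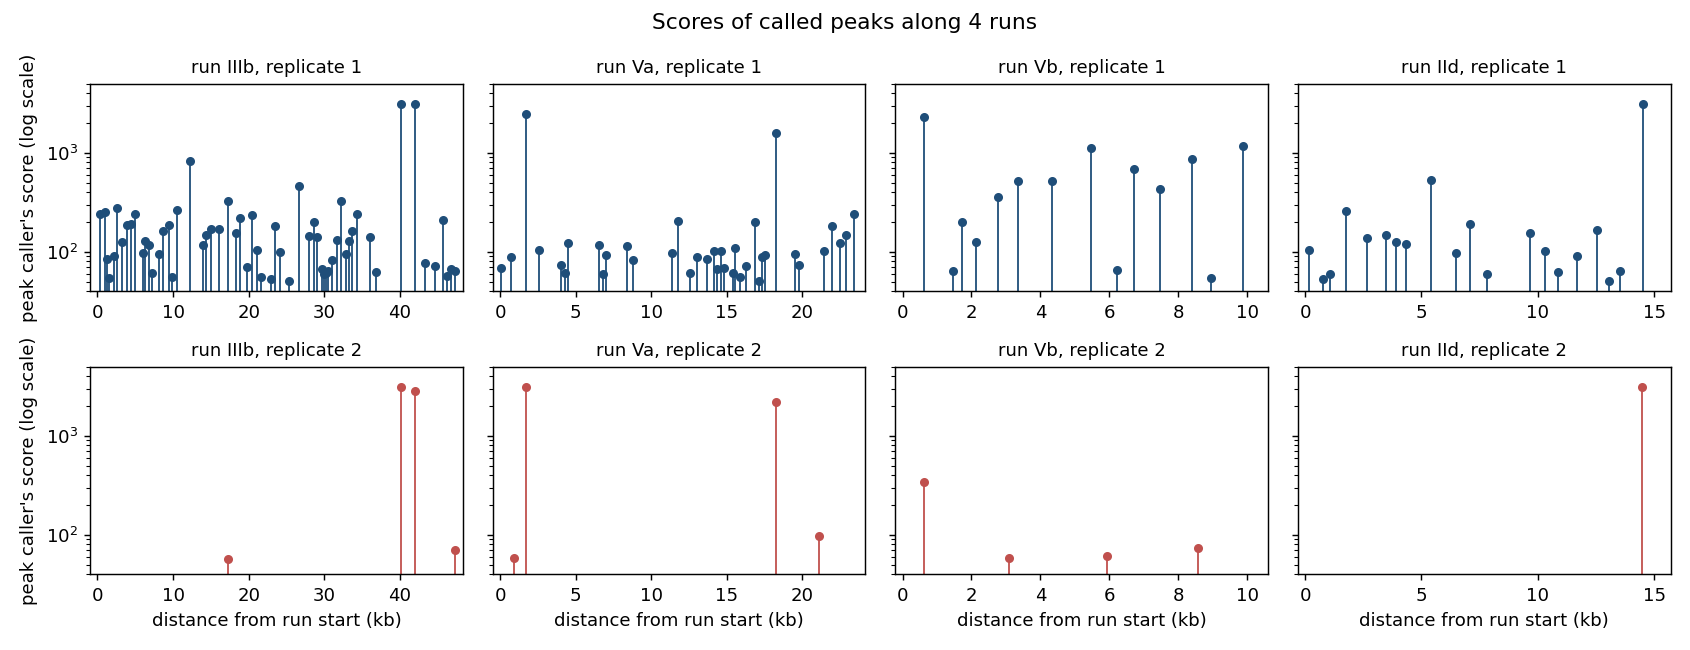
Score of each called peak (log scale) against its distance from the start of the run (kb) in runs IIIb, Va, Vb and IId, with replicate 1 in the upper row and replicate 2 in the lower. In IIIb, Va and IId the tallest replicate 2 peaks stand where the tallest replicate 1 peaks are, and the low replicate 1 peaks elsewhere in these runs have almost no counterpart.

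Of the 16 replicate 2 peaks in the runs, 14 touched a run peak, against 37.1% of all autosomal replicate 2 peaks that touched replicate 1. The rule chose spans dense in replicate 1 peaks, which cover 56.7% of them, so a high share was built in. The contrast therefore does not measure agreement between the replicates. By score within the replicate 2 list, 5 were in the highest 25% and 9 in the lowest. Replicate 2 peaks covered 4.26% of the summed span, with the largest shares in Vb (20.0%) and IId (11.1%). Runs Ia, IIa, IIb, IIc, IIIa, IIIc, IIId, IVa and IVb had no replicate 2 peak, and in IVb, with 65 replicate 1 peaks, this allows a share of touching peaks of up to 4.62%. In IIc, none of the 12 peaks in the highest 25% of replicate 1 had a counterpart.

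Per length, replicate 2 peaks were denser in the runs than on the rest of the autosomes. The spans were chosen for replicate 1 peaks, and 32.7% of all autosomal replicate 1 peaks touched replicate 2. Some excess was therefore built in, and the ratio below was larger, 8.44, with chains of 5 or more peaks. Counted by their middles, they numbered 67.0 per Mb in the runs (exact Poisson 95% interval 38.3 to 108.7) and 15.2 per Mb on the rest of the autosomes (14.3 to 16.0), a ratio of 4.41 (2.51 to 7.19). For replicate 1 the densities were 1548.3 and 13.3 per Mb, as the rule requires. The intervals take peaks as independent, and 15 of the 16 replicate 2 peaks lay in only 4 runs.

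Replicate 2 had no autosomal run of its own under the same rule. Its longest autosomal chain had 9 peaks, from 14750657 to 14757578 on V, and did not overlap any run. At this place replicate 1 had a chain of 8 peaks, just outside the rule, all 8 of which touched replicate 2. The other chains of 8 or 9 replicate 1 peaks were on III at 6567125 to 6573243 (9 peaks), on V at 6171676 to 6182900 (9) and on V at 1215326 to 1217497 (8). Of their peaks, 0, 1 and 0 touched replicate 2. Just inside the rule were run IVa with 11 peaks, run IIIc with 13 and run Vb with 14. Of their peaks, 0, 0 and 5 touched replicate 2.

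The series-level list had a peak at nearly every run peak, though often one of other limits. In it, 365 of 370 run peaks were touched by at least 1 bp (98.6%, 96.9 to 99.6%), against 88.9% of all autosomal replicate 1 peaks and 85.6% (83.4 to 87.7%) of those outside the runs. The direction depended on the overlap asked for. With a reciprocal overlap of 50% the shares were 18.6% in the runs and 49.5% outside, and with peak middles within 200 bp they were 40.5% and 72.8%. In the lowest 25% of scores the shares were 95.7% (66 of 69) in the runs and 61.7% (182 of 295) elsewhere. The 5 run peaks with no counterpart had scores of 50.25 to 68.09, and 4 were in run IVb and 1 was the first peak of run Va. How this list was made from the replicates is not given, so it is not a separate sample and its overlap with replicate 1 is a description.

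The series-level list drew the runs in fewer and longer pieces. It had 208 peaks in the runs, with a median width of 535 bp, against 286 bp for its other autosomal peaks. In 13 of 14 runs it had fewer peaks than replicate 1, and in IVa both had 11. Of the 208, 95 touched at least 2 run peaks. Run IIb was a single series-level peak of 8839 bp, from 3159639 to 3168477, in place of 21 replicate 1 peaks. In IIc the longest was 6332 bp, from 9817399 to 9823730, and joined 11. The series-level list covered 78.0% of the summed span, 94.5% of the bases under run peaks and 56.4% of the bases in the gaps between them. By run, its cover ranged from 60.5% in IVb to 99.7% in IIb.

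**Figure D5:**
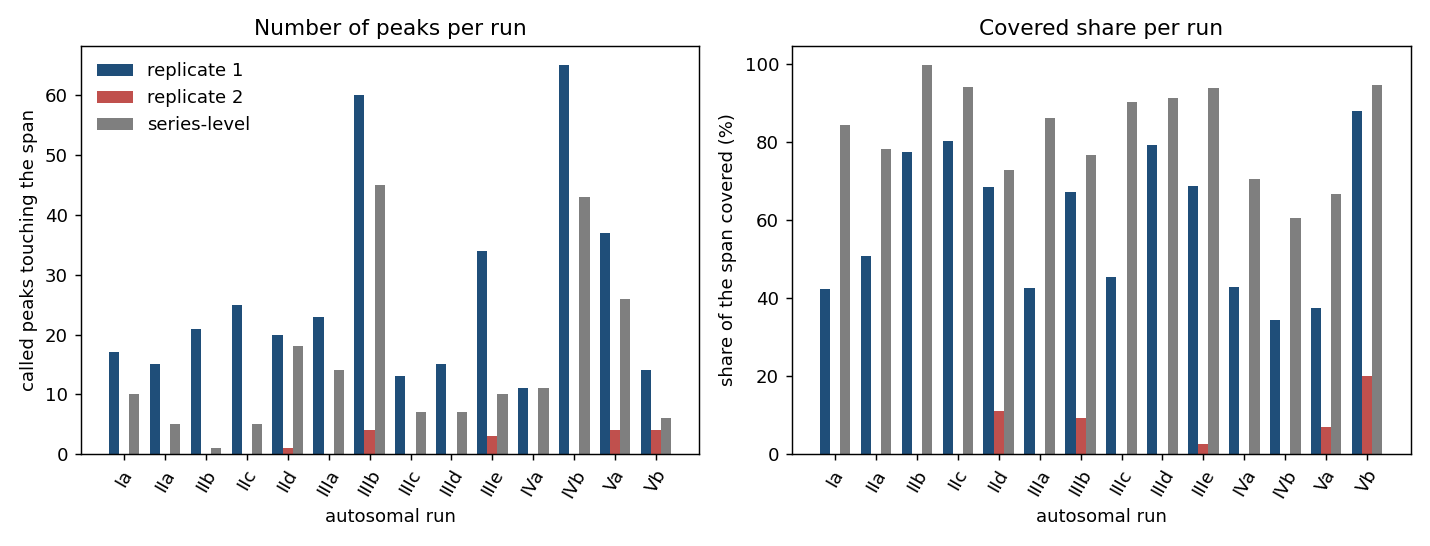
Number of called peaks touching each run (left) and share of its span that they cover (%, right), for replicate 1, replicate 2 and the series-level list. In IVb the bars are 65, 0 and 43 peaks, and in IIb 21, 0 and 1, with series-level cover of 60.5% and 99.7%.

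The series-level list was chained by the same 5 kb limit, whatever the number of peaks, and the ends of these chains were set against those of the runs. At 16 of 28 edges they lay within 100 bp of each other, and the median distance was 74 bp. Run IIIb started at 7405335 in replicate 1 and at 7405344 in the series-level list, and ended at 7452720 and 7452622. At 3 edges the series-level chain reached more than 1000 bp further left, by 4073 bp at IIIa, 1665 bp at IVb and 1483 bp at Ia. On the right it extended 567 bp beyond IIc, where a further series-level peak followed at 421 bp. At the left edge of Va, the first replicate 1 peak had no counterpart and the series-level list began 501 bp later.

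A part of the series-level signal in the runs was not called in replicate 1. In the 14 spans, 182 of 208 series-level peaks touched a run peak, against 61.2% of all autosomal series-level peaks that touched replicate 1. The spans were chosen as dense in replicate 1 peaks, so a higher share there was built in. The 26 series-level peaks that touched no run peak were narrow, at 146 to 436 bp, ranked 730 or lower of 2008 and lay in 7 runs. Peaks of replicate 2 were touched by 15 of the 208, against 30.6% over the autosomes. Conversely, all 16 replicate 2 peaks in the runs touched the series-level list, as did 43.2% of autosomal replicate 2 peaks. Series-level peaks covered 78.0% of the summed span, so touching was likely at any place in the runs.

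The same chaining rule gave 12 autosomal runs with 233 peaks in the series-level list. Of the 14 replicate 1 runs, 8 overlapped one of these, namely Ia, IId, IIIa, IIIb, IIIe, IVa, IVb and Va. The remaining 6 had 1 to 7 series-level peaks each, which touched every one of their run peaks. The other 4 series-level runs were on I at 10266705 to 10276909 (11 peaks), on III at 6567095 to 6576881 (11) and 11593783 to 11609228 (16), and on V at 6171672 to 6182877 (10). At these places replicate 1 had 4, 9, 7 and 9 peaks, too few for the rule, and replicate 2 had 0, 0, 0 and 1.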

How the data were processed

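IMB-1 ChIP-seq was analysed from peak lists of the 2 ChIP samples and of the whole series. Reads were aligned with BWA to ce10, per the submitters' processing notes. Per the file headers and source columns, MACS made the replicate lists and MACS v2 the series-level list, on WormBase WS220. The caller's threshold, settings and control were not given in the sources used here. The score of each peak is the authors' deposited value on an unnamed scale, so it served to order peaks inside 1 list. Starts and ends are as the authors deposited them. Read depth is unknown.

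Members and lists were chosen with earlier results of these data known. Named regions are every run, its edge, highest-scoring and widest peaks, its widest gap, replicate 2 peaks inside it, and chains of 8 or 9 peaks. The widest peaks, the chain-size groups, the series-level chain ends and the split at rank 219 were chosen after values were seen. Chaining and overlap (at least 1 bp) were tested on 20 simulated lists. Alternatives changed the gap, chain size, overlap and list. The software was scipy 1.17.1, pandas 2.3.3 and numpy 2.4.6 under Python 3.11.15. The gene table at hand is of another assembly, so genes and sequences are not reported here.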

Additional observations from a re-analysis of the deposited data

How the results depend on the processing

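Of 48 alternatives over 6 results, 25 stayed within the set limits, which were 1.5 times a count or the 95% interval of a share or ratio. For cover, that interval took every base as independent, so it was far too narrow. Every cover alternative fell outside it, also those that differed little from the reported 56.7%. With chains of 5 or more peaks there were 39 runs, 9.90% of their peaks touched replicate 2, 95.8% touched the series-level list, the replicate 2 density ratio was 8.44 and cover 54.9%. Cover was 55.9% with chains of 15 or more, 59.9% with gaps up to 2 kb and 50.1% up to 10 kb, where 7.55% touched replicate 2. The higher-scoring 50% of the list, chained anew, held 178 run peaks with 55.0% cover, and the series-level list 233 with 67.2%. Without replicate 1, the replicate 2 list gave 0 runs and 0 run peaks, hence no cover. Without replicate 2, with the series-level list in its place, the density ratio was 48.6. Touching replicate 2 fell to 2.16% with a reciprocal overlap of 50% (28.2% outside the runs) and was 8.92% with edges within 500 bp (48.1% outside). Touching the series-level list fell to 18.6% with a reciprocal overlap and 40.5% with middles within 200 bp, against 49.5% and 72.8% outside the runs (median series-level width 535 bp in the runs and 286 bp elsewhere on the autosomes). It was 100% with edges within 500 bp, 100% in the higher-scoring 50% and 99.7% without run IVb. The runs IIIb, Va and Vb tied for the most replicate 2 peaks and were left out one at a time, which gave density ratios of 3.45 to 4.12. The cause was not tested where the construction of an alternative does not show it. No paired analysis was possible because the input samples have no peak list among the files analysed here. Read depth is unknown, so a site missing from a list was only not called.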

Other observations

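Chains long enough for the rule were also found on X. Under the same rule replicate 1 had 3 runs there with 36 peaks, at 1882859 to 1887912 (11 peaks, 69.8% covered), 5045453 to 5057262 (14 peaks, 69.9% covered) and 16927917 to 16939457 (11 peaks, 21.0% covered). The last of these was covered less than any autosomal run, of which IVb was the lowest at 34.4%. In the X runs, in the same order, 0, 1 and 1 replicate 1 peaks touched replicate 2, and 11, 14 and 10 touched the series-level list. The shares over all X peaks of replicate 1 are not given here, so these counts cannot be called low or high for X. The difference between runs on X and on the autosomes was not tested.

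The longest autosomal chains of replicate 2 differed in how far replicate 1 shared them. On I, 6 of 7 peaks of the chain at 4535811 to 4548523 and 6 of 6 at 3763148 to 3765809 touched replicate 1. The counts were 7 of 9 in the longest chain, on V, 5 of 7 on IV at 15077537 to 15082256 and 4 of 7 on II at 13817695 to 13828676. Among all autosomal replicate 2 peaks the share was 37.1%. The replicate 2 chain of 8 peaks on IV at 14476580 to 14481047 had 5 replicate 1 peaks. Its chain of 7 on IV at 4920662 to 4927201 had 1. A chain of 6 on II at 1034313 to 1039161 had no replicate 1 and no series-level peak. None of the replicate 2 chains of 6 or more autosomal peaks overlapped a run.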
